A study of Mus musculus with 88 samples.

Results

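Cluster 9 is 1 of the 22 clusters that the authors made from single mouse cells, and 217 of its 258 cells (84.1%) came from Eed null embryoid bodies at day 4 of differentiation. Its members were taken by the cluster number in the deposited cell annotation, which gave 258 of the 4949 cells in the table. Eed is a core subunit of Polycomb repressive complex 2 (PRC2), and the study asked how embryonic stem cells that lack Eed, Mtf2 or Jarid2 differ from wild-type (WT) ones when they differentiate as embryoid bodies. Cells of the 4 genotypes were sorted alive into plates, 1 cell to a well, at days 0, 4, 7 and 10, which gave 16 libraries of 202 to 347 cells. The bulk RNA used below came from Eed null cells and a wild-type line at days 0, 2, 4 and 7. The labels give the strain of every single-cell library as E14. The study's methods describe the WT cells as E14 (129/Ola) and cite a separate source for each mutant. They name J1 as the wild-type line matched to the Eed null cells in bulk. Day 0 cells were undifferentiated and grown in serum with leukemia inhibitory factor, and embryoid bodies differentiated once that factor was withdrawn. Each genotype and day is a single library on a single plate, so the comparisons of cluster 9 below have no replicate of either group and are given without a test, and genotype, line and plate cannot be told apart.

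PRC2 places methyl groups on lysine 27 of histone H3, a mark found at silent developmental genes, and EED binds this mark and is needed for the activity of the complex. Mouse embryonic stem cells that lose PRC2 keep dividing, and they are known to differentiate poorly. Dnmt3l encodes a partner of the DNA methyltransferases that has no catalytic activity of its own, and Dppa3 (Stella) encodes a factor that protects the DNA methylation of the early embryo and is a marker of primordial germ cells.

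Promoters of the marker Dnmt3l, of 2 germline genes and of 2 lysosomal genes are shown as examples. All of them hold the sequence marked below, so they do not represent their lists, and they are not the genes with the largest differences. Each is 300 bases long, 250 before and 50 after an annotated start, from RefSeq on GRCm38.p6, printed 5′ to 3′ on the strand of the gene. Capitals mark every CACGTG, a 6-base sequence that reads the same on both strands and so was searched on both at once. Dnmt3l has 3 annotated starts and Ctsa 2, and the start shown for each is the second, chosen because it alone of that gene's starts holds the marked sequence.
Dnmt3l (chr10:78049592-78049891, plus strand): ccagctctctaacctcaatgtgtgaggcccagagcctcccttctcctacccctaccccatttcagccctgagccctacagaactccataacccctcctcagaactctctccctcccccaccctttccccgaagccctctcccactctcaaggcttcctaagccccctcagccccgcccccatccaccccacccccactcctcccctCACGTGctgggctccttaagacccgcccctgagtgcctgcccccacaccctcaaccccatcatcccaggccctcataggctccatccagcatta
Ddx4 (chr13:112652261-112652560, minus strand): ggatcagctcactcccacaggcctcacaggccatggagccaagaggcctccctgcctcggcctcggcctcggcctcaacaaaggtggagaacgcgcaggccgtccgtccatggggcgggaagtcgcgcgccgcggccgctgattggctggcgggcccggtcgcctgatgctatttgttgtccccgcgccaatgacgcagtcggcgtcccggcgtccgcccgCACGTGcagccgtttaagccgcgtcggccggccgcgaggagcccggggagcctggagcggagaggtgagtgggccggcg
Mael (chr1:166238695-166238994, minus strand): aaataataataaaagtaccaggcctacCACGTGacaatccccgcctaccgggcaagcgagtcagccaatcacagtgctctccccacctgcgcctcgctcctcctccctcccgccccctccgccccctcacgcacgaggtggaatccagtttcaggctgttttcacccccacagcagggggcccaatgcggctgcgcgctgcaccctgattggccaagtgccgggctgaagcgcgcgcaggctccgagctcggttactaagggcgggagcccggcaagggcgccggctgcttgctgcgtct
Ctsa (chr2:164833523-164833822, plus strand): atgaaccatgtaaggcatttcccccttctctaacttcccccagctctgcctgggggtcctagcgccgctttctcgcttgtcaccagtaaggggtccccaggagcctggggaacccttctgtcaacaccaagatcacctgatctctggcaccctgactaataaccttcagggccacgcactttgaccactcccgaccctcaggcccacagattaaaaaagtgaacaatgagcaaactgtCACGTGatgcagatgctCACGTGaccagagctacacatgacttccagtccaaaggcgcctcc
Ifi30 (chr8:70766614-70766913, minus strand): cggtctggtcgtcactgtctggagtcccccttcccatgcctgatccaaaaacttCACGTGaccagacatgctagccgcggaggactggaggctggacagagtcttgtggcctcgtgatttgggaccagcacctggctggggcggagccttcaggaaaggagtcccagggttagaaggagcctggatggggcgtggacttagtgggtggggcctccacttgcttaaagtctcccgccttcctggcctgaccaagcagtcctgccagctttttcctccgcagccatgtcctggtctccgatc
Of the 24 genes in the germline list used below, 21 (87.5%) matched a promoter, and CACGTG was found in 12 of them (57.1%). It was found in 8.09% of the promoters of all 27025 genes. The lysosome and p53 target lists used below matched at 72.7% and 75%, and 45.8% and 33.3% of their matched genes held it. Of the genes tested against WT cells 76% matched a promoter, too few for a check against them, and 13.9% of those held CACGTG. Among matched genes higher than in WT cells the share was 13.1%. The germline promoters held a median of 22 CG dinucleotides (10 to 38). The median was 8 over all promoters and 24 over those of the genes tested against WT cells. CACGTG stood in the promoters of Ddx4 and Mael but not in those of Dazl, Smc1b or Rpl10l, germline genes that were also higher in cluster 9. A match describes these letters and is not a measured binding site.

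Cluster 9 was close to a cluster of one genotype and one day. It held 67.8% of the 320 day 4 Eed null cells (217 cells, 95% exact Clopper-Pearson interval 62.4 to 72.9%) and 10% of the 340 day 0 Eed null cells (34 cells, 7.03 to 13.7%). A further 5 cells came from day 7 Eed null embryoid bodies, 1 from day 10 and 1 from the day 7 Mtf2 null library. None of the other 11 libraries held a cell of cluster 9, and for the 0 of 331 day 4 WT cells the interval reaches up to 1.11%. The rest of the day 4 Eed null library lay mainly in cluster 10, with 83 cells, and the rest of the day 0 Eed null library in cluster 6, with 280. All 4949 cell names were unique. These intervals, like those below, cover counting error only.

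Levels are given as UMI counts summed over the cells of a group and scaled to counts per 1000000 (UMI CPM), with exact Poisson or, for ratios, exact binomial 95% counting intervals. A gene was tested for a ratio where the higher group had at least 50 UMI CPM and a UMI in at least 10% of cells, and was called where the ratio was at least 2. Cells of cluster 9 held a median of 4916.5 UMIs (1312 to 20558) and 2110.5 genes, against 6754 UMIs in all other cells and 5233 in day 4 WT cells. The summed total of cluster 9 was 1442477 UMIs, so 3 UMIs correspond to 2.08 UMI CPM. Over the 16 libraries the median UMIs per cell ran from 4997 to 10603.

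Dnmt3l (chr10:78041947-78063622, plus strand of GRCm38) was at 992 UMI CPM in cluster 9 (941 to 1045), at 288 in all other cells and at 186 in day 4 WT cells (168 to 206). Cluster 9 ranked 2 of 22 for it, next to cluster 6 at 1012 and above cluster 10 at 717. The first 2 of these clusters did not differ beyond their counting intervals. Since the rank and the ratio come from genes that built the clusters, they describe cluster 9 and were not tested. The level in cluster 9 was 969 in the 34 day 0 cells and 1006 in the 217 day 4 cells, so the difference was already present before differentiation. Whole libraries followed genotype: at day 0 Dnmt3l stood at 337 UMI CPM in WT, 509 in Mtf2 null, 111 in Jarid2 null and 1005 in Eed null cells, and at day 4 at 186, 406, 155 and 890 in the same order. By day 7 it had come down to 345 in Eed null cells and to 51.3 in WT.

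Dppa3 (chr6:122626410-122630272, plus strand) was at 277 UMI CPM in cluster 9, 136 in all other cells and 55.1 in day 4 WT cells. Cluster 9 ranked 3 of 22, below cluster 10 at 666 and cluster 17 at 625.6. Unlike Dnmt3l, Dppa3 differed within the cluster by day, at 142 UMI CPM in day 0 cells and 299 in day 4 cells. Within the day 4 Eed null library it was lower in cluster 9 than in cluster 10, 299 against 617 UMI CPM, a log2 ratio of -1.05 (-1.24 to -0.85). Of the 2 genes that mark cluster 9, Dppa3 was therefore higher in the neighbouring cluster of the same plate, while Dnmt3l was slightly higher in cluster 9, 1006 against 752 UMI CPM.

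**Figure D1:**
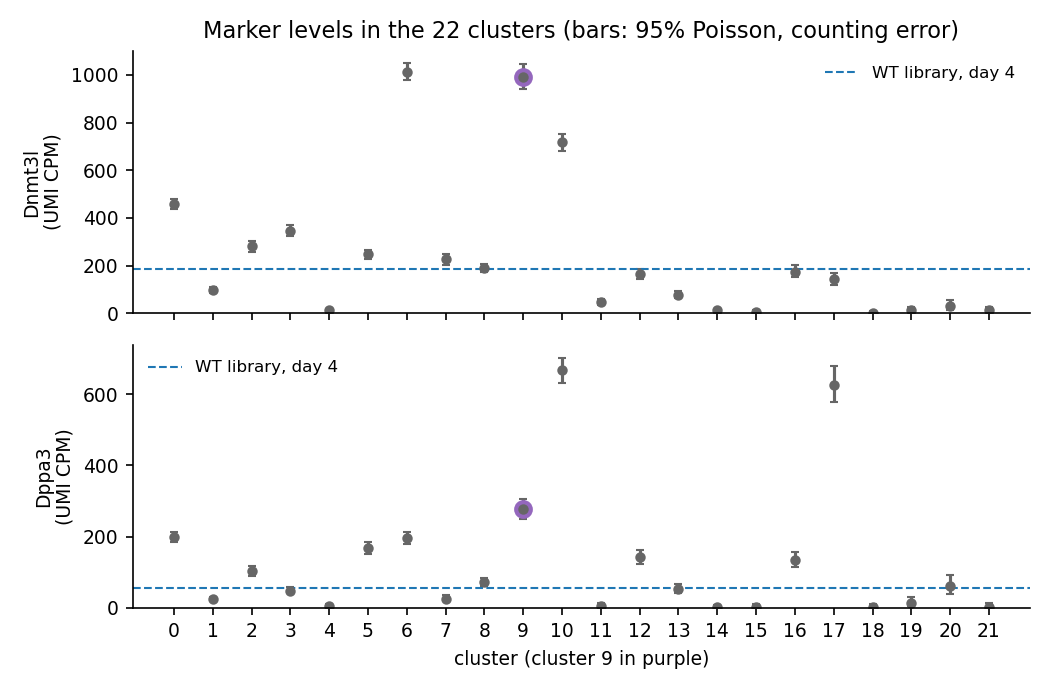
Levels of Dnmt3l (upper panel) and Dppa3 (lower panel) in UMI CPM on the vertical axis in each of the 22 clusters on the horizontal axis, with 95% Poisson bars and the day 4 WT library as a dashed line. Cluster 9 (purple) lies at 992 UMI CPM for Dnmt3l and 277 for Dppa3, both above the WT line, and cluster 10 is higher for Dppa3.

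Detection in single cells gave the same order against WT cells, while for Dnmt3l the order of clusters 9 and 10 depended on depth. After thinning every cell to 2500 UMIs, which left out 31 shallower cells of cluster 9, Dnmt3l had a UMI in 195 of 227 cells (85.9%, 80.7 to 90.2%), in 73.4% of day 4 cluster 10 cells and in 31.0% of day 4 WT cells. Dppa3 had a UMI in 41.9% of cluster 9 cells, 64.6% of day 4 cluster 10 cells and 8.36% of day 4 WT cells. In cells of cluster 4 from day 10 WT, a differentiated group taken as the background, the shares were 1.23% for Dnmt3l and 0 of 81 cells for Dppa3. Without thinning, 94.2% of cluster 9 cells had a UMI of Dnmt3l and 58.9% one of Dppa3. In day 4 cluster 10 cells these shares were 94.0% and 86.7%. Thinned to 1500 UMIs, Dnmt3l had a UMI in 66.9% of cluster 9 cells and in 71.6% of day 4 cluster 10 cells. At full depth 144 of the 258 cluster 9 cells held both genes, 99 Dnmt3l without Dppa3, 8 Dppa3 without Dnmt3l and 7 neither. Most cells in which Dppa3 was found also held Dnmt3l, but so did 94.2% of all cluster 9 cells. A link between these genes within single cells was not tested. In day 4 WT cells 18 of 331 held both.

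Eed itself was checked first among the other genes. Cluster 9 held 2 Eed UMIs in all (1.39 UMI CPM), against 198 UMI CPM in day 4 WT cells, a log2 ratio with an interval of -10.2 to -5.29. Every library labelled Eed null was low, from 1.3 UMI CPM at day 4 to 11.5 at day 0, and those of the other genotypes lay between 115 and 495. Hprt, an X-linked purine salvage gene used in most cells, was at 352 UMI CPM in cluster 9 and had 1 UMI in day 4 WT cells (0.467 UMI CPM), while it stood at 514 in the Mtf2 null and 586 in the Jarid2 null library of day 4. The WT library was thus the one without Hprt, and in bulk the J1 line expressed it at 132, 172, 89.8 and 45.7 CPM at days 0, 2, 4 and 7. Line and genotype cannot be told apart in the single-cell comparison with WT cells. The bulk comparison with J1, the line that the study matched to the Eed null cells, is given further on. It sets another pair of lines side by side and cannot tell line and genotype apart either.

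Whole chromosomes also set Eed null cells apart. In cluster 9 against day 4 WT cells the median log2 ratio was 0.44 over 263 tested genes of chromosome 3 and 0.50 over 230 of chromosome 6, while it was -0.50 over 177 of chromosome 14 and between -0.22 and 0.03 on 16 other chromosomes, chromosome 11 being at -0.06. Chromosomes 3 and 6 held 77 of the 313 genes called higher in cluster 9 than in day 4 WT cells (24.6%) and 11.3% of the genes tested. The same 2 chromosomes were raised in every Eed null library against each of the other 3 genotypes of its day, by 0.43 to 0.64, and in bulk against J1, by 0.63 and 0.66. Within the day 4 Eed null library they did not stand out between clusters 9 and 10, at -0.25 and -0.27 beside -0.26 over all genes. The offset was thus shared by the Eed null libraries. Chromosome 14 was near the other chromosomes in bulk (0.05), where chromosome 11 was the one that stood lower, at -0.36 over 1155 genes. Copy number was not measured, and its part in these medians was not tested. Examples among the genes named below are Dppa3, Nanog and Stk31 on chromosome 6 and Sohlh2 and Zmat3 on chromosome 3, while Dnmt3l is on chromosome 10.

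**Figure D2:**
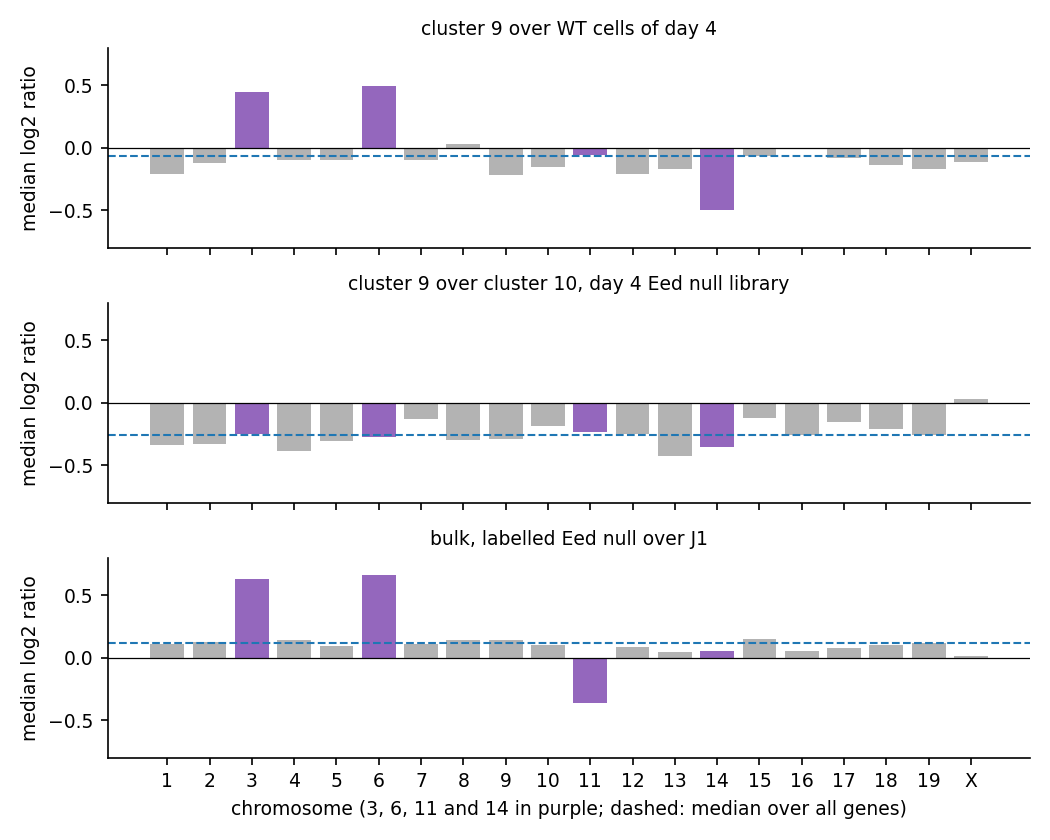
Median log2 ratio (vertical axis) of the tested genes on each chromosome (horizontal axis) for cluster 9 over day 4 WT cells, for cluster 9 over cluster 10 of the day 4 Eed null library, and for bulk Eed null over J1, with the median of all genes dashed. Chromosomes 3 and 6 stand at 0.44 and 0.50 in the upper panel and at 0.63 and 0.66 in the lower one, and at -0.25 and -0.27 between the clusters of one library.

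Against day 4 WT cells, 313 of 4364 tested genes were higher in cluster 9 (7.17%) and 304 lower (6.97%), with a median log2 ratio of -0.07. A few of the genes with the highest ratios are described first. Sohlh2, a transcription factor of developing germ cells (chr3:55182028-55209957, plus strand), was at 160 UMI CPM in cluster 9 and had 3 UMIs in WT cells (1.40 UMI CPM), a log2 ratio of 6.84 (5.27 to 9.13). Khdc3, an oocyte factor, was at 147 against 8.40 UMI CPM. Esx1, an X-linked homeobox gene of placenta and testis, was at 52.0 against 2.33 UMI CPM. Xlr3a, of an X-linked lymphocyte-regulated family with near-identical copies that share reads, was at 147 UMI CPM and had no UMI in WT cells, so it was at least 105-fold higher taking 3 UMIs as the floor of the WT group. All but Khdc3 had at most 5 UMIs in WT cells, and all 4 were detected in 20.9% or more of cluster 9 cells.

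The germline list held 22 genes in the table, of which 7 were tested against WT cells. Dazl, Ddx4, Mael, Tex15, Smc1b and Rpl10l were called higher in cluster 9 and Sycp3 lower. The 6 genes were below 50 UMI CPM in WT cells and so entered the comparison through their level in cluster 9, and their direction is a description of that choice. The other 15 were below the limit on level. Over all 22 genes the summed level was 815 UMI CPM in cluster 9 and 452 in WT cells. Dazl, an RNA-binding protein of germ cells (chr17:50279395-50293636, minus strand), was at 78.3 UMI CPM in cluster 9 and 10.7 in WT cells. Smc1b, the meiotic cohesin subunit (chr15:85064689-85131964, minus strand), was at 95 against 30.8. Rpl10l, a ribosomal protein gene active in testis, was at 159 against 22.9. The level of each was moderate and none of the 6 lies on chromosome 3 or 6. Ddx4 (Vasa, an RNA helicase of germ cells) was at 53.4 against 22.9, Mael, which takes part in piRNA-guided silencing of transposons, at 56.9 against 13.5, and Tex15, a testis gene of the same pathway, at 51.3 against 6.54. Sycp3, a component of the synaptonemal complex, went the other way, with 83.9 against 251 UMI CPM.

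These germline genes were not particular to cluster 9 within its own library. Against cluster 10 of day 4, where 3.71% of all tested genes were higher and 13.3% lower, 1 of the 7 tested members was higher in cluster 9 (Sycp3, 81.9 against 39.2 UMI CPM) and 2 were lower (Tex15, 47.5 against 143, and Stk31, 40.1 against 80.5). The list summed to 793 against 1285 UMI CPM. Summed over the list in each cell, 17.1% of day 4 cluster 9 cells lay above the median of day 4 cluster 10 cells. Of the regulators that specify primordial germ cells, Prdm1 was at 4.16 UMI CPM in cluster 9 and 15.4 in WT cells, Prdm14 at 12.5 and 6.54, and Tfap2c at 77.6 and 46.2. Of the 6 germ cell regulators tested against WT cells, 1 was higher (Dppa3) and 1 lower (Ifitm3, an interferon-inducible membrane protein, 54.8 against 378 UMI CPM). Of all genes tested against WT cells 7.17% were higher and 6.97% lower. These regulators gave no uniform picture, and the cluster is named here by its number only.

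**Figure D3:**
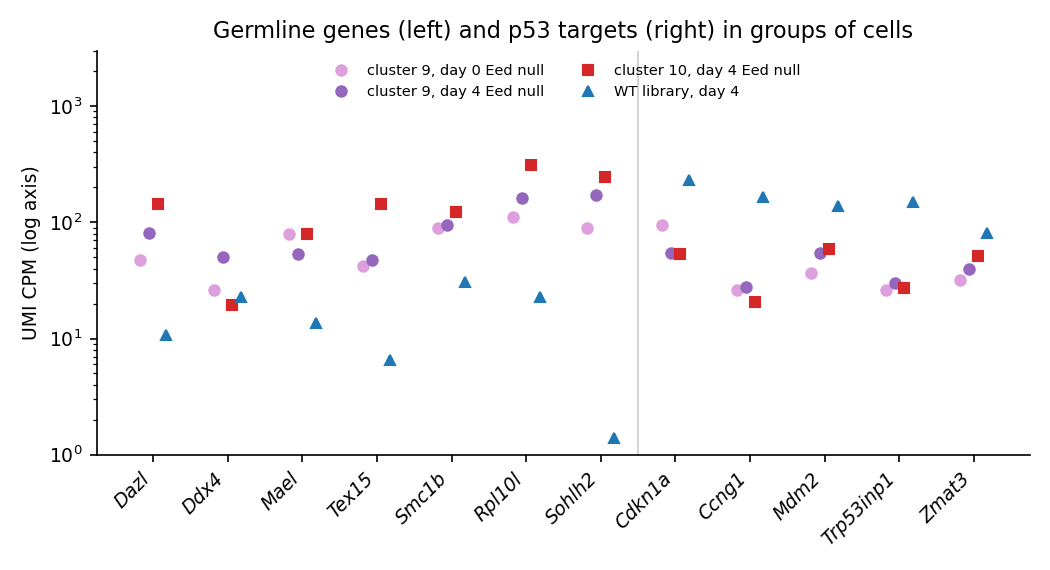
UMI CPM on a log vertical axis for 7 germline genes (left) and 5 p53 targets (right) in cluster 9 of day 0, cluster 9 of day 4, cluster 10 of day 4 and the day 4 WT library, each point a sum over cells. Dazl and Sohlh2 stand higher in all 3 Eed null groups than in WT, and Ccng1 and Cdkn1a lower.

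Of 6 tested p53 targets, 5 were lower in cluster 9 than in WT cells and none was higher, beside 6.97% and 7.17% of all genes tested. The median log2 ratio over the 6 was -1.70, beside -0.07 over all. Ccng1, Trp53inp1 and Zmat3 were below 50 UMI CPM in cluster 9 and entered the comparison through their level in WT cells, while Cdkn1a, Mdm2 and Bax were above it in both. Cdkn1a, the cell cycle inhibitor p21, was at 58.9 UMI CPM in cluster 9 and 232 in WT cells. Ccng1, a cyclin gene induced by p53, was at 29.8 against 167, and Trp53inp1, a stress-induced partner of p53, at 29.1 against 148. Mdm2, the ubiquitin ligase of p53, was at 52.0 against 139, Zmat3 at 38.1 against 81.2, and Bax, below the ratio limit, at 196 against 266. Eda2r, a receptor gene outside the list, was at 11.8 against 104. Trp53 itself, on chromosome 11 and looked up after these values were seen, was at 18.0 UMI CPM in cluster 9 and 110 in WT cells, a log2 ratio of -2.61 (-3.25 to -2.02). Its level in whole Eed null libraries was 45.1, 29.7, 36.5 and 31.4 UMI CPM at days 0, 4, 7 and 10, and in the 12 libraries of the other genotypes between 110 and 430. Trp53 was thus low in every Eed null library. Within the day 4 library none of the 4 targets tested differed between clusters 9 and 10 by the ratio limit, for example Cdkn1a with 54.9 against 53.3 UMI CPM.

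Imprinted genes differed in both directions from WT cells, with 6 of 14 tested higher and 2 lower, beside 7.17% and 6.97% of all genes tested, and with a median log2 ratio of 0.42 beside -0.07. H19 (chr7:142575529-142578143, minus strand), a maternally expressed noncoding RNA, was at 181 UMI CPM in cluster 9 and had 2 UMIs in WT cells, a log2 ratio of 7.01 (5.73 to 10.65). Within cluster 9 it was at 332 in day 0 and 133 in day 4 cells. Peg10, Sfmbt2, Igf2r, Slc38a4 and Cdkn1c were the other 5, from 134 against 36.9 UMI CPM for Peg10 to 83.9 against 38.8 for Cdkn1c. Meg3 and Rian, neighbouring maternal noncoding RNAs of chromosome 12, were lower, Meg3 at 19.4 against 454 UMI CPM and Rian at 8.32 against 122. H19, Peg10 and Cdkn1c were below 50 UMI CPM in WT cells and entered the comparison through their level in cluster 9. Meg3 and Rian were below it in cluster 9 and entered through WT cells, so these directions describe that choice. For Meg3 the WT library stood apart from all others: at day 4 it was also low in Mtf2 null (54.5) and Jarid2 null (13.1) cells. H19 separated the Eed null cells instead, with 12.4 UMI CPM in day 4 Mtf2 null cells and no UMI in Jarid2 null cells.

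Over all genes tested against WT cells, 7.17% were higher and 6.97% lower, which are the shares to set beside each list here. Of the DNA methylation list, Dnmt3l was higher and Dnmt3b lower than in WT cells, 155 against 481 UMI CPM, with 5 of 7 tested members not called. Dnmt3a, the other de novo methyltransferase, differed little, at 147 against 149. In the naive pluripotency list Tfcp2l1 (152 against 73.3) and Tcl1 (111 against 28.9) were higher and Klf5 (146 against 305) lower, of 10 tested. Of 9 core pluripotency genes tested, L1td1 was lower and none higher. Pou5f1, the Oct4 gene, was at 99.1 against 105 UMI CPM. Primitive streak genes were at the level of WT cells or below detection, with no member tested and 22.2 UMI CPM summed over 12 genes against 21.9 in WT cells. The 35 Hox genes, classical PRC2 targets, were each too low to be tested, and their sum was 284 UMI CPM in cluster 9 and 28.5 in WT cells.

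Genes of cells outside the epiblast were examined as well. The collagens Col4a1 (167 against 14.5 UMI CPM) and Col4a2 (62.4 against 4.2), known from extraembryonic endoderm, and Sparc (316 against 152) were called higher than in WT cells, of which Col4a1 and Col4a2 entered the comparison through their level in cluster 9. Other genes of that list, among them Sox7 and Afp, were too low to be tested, and 2 were at 0. Fibroblast and feeder genes summed to 63.8 UMI CPM in cluster 9 and 14.9 in WT cells, with 3 of 8 at 0. Thy1 made up most of that, at 50.6 UMI CPM against 6.54. Col1a1 and Col1a2 had 2 and 1 UMIs, and 5 of the 10 blood and endothelium genes were at 0. The metallothioneins Mt1 and Mt2, metal-binding proteins, were both higher, with 11186 UMI CPM summed in cluster 9, 2327 in WT cells and 2500 in all other cells.

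Against all other cells, 345 of 4756 tested genes were higher in cluster 9 (7.25%) and 778 lower (16.4%), with a median log2 ratio of -0.22. Myl3, a myosin light chain (chr9:110741861-110769798, plus strand), had the highest ratio, with 94.3 against 3.10 UMI CPM. It was followed by the unnamed transcript 2900093K20Rik (183 against 12.7) and the gut hormone gene Pyy (56.2 against 5.17). The heat shock gene Hspa1a came next at 77.6 against 7.60, then the growth arrest gene Gadd45b at 242 against 23.7. Hrk, a pro-apoptotic member of the Bcl2 family, was the last of the 15 genes with the highest ratios, at 61.7 against 10.6. Hspa1a had a UMI in 14.3% of cluster 9 cells only, and Gadd45b in 60.1%. Of 10 tested genes in the stress list, which was drawn up after values were seen, 9 were higher and none lower. H2-Ab1, a class II antigen gene, was at 114 against 15.8 UMI CPM. Among the genes with the lowest ratios were the embryonic globin Hba-x (0 against 750 UMI CPM), the matrix genes Col1a1 and Col1a2, and the neural factor Olig2 (0 against 51.2), which mark differentiated cells of later days. Against the other cells of day 4 alone, 485 genes were lower instead of 778.

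Within the day 4 Eed null library the 217 cells of cluster 9 were set against the 83 of cluster 10, which share plate, line and day. Of 4694 tested genes 174 were higher in cluster 9 (3.71%) and 623 lower (13.3%), with a median log2 ratio of -0.26. With the median ratio as scaling the counts became 253 and 402, so the share of higher calls went from 21.8% to 38.6%. Of 24 tested genes of the lysosome, a list drawn up after values were seen and so no independent evidence, 13 were called higher, none lower and 11 neither. Against WT cells 5 of 24 were called higher, beside 7.17% of all genes. Ifi30, a lysosomal thiol reductase, was at 849 UMI CPM in cluster 9 and 162 in cluster 10. Cd68, a lysosomal membrane glycoprotein, was at 79.4 against 10.9, and Ctsa, protective protein cathepsin A, at 250 against 69.6. Apoe, a lipid transport protein, was at 1155 against 201 UMI CPM, and the clock gene Per1 at 96.6 against 19.6. The lysosomal sum separated single cells, with a median of 7895 UMI CPM in cluster 9 and 4210 in cluster 10, and 96.8% of cluster 9 cells lay above the cluster 10 median.

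Stress and glycolysis genes followed the same direction. Over all genes tested against cluster 10, 3.71% were higher and 13.3% lower. The stress list and the ribosomal list were drawn up after values were seen. Of 9 tested stress genes 8 were higher in cluster 9, among them Gadd45b with 263 against 81.6 UMI CPM, and none was lower. Against WT cells 3 of 10 were higher, beside 7.17% of all genes. Of 18 glycolysis and hypoxia genes 6 were higher, such as the glycolytic enzymes Aldoa (4247 against 1563) and Pgk1 (3035 against 1498), and Pdk1 was lower (53.2 against 135). Ribosomal protein genes had a median log2 ratio of 0.69 over 81 tested members, although 6 of them were called higher and 1 lower. Against WT cells the list went the other way, with a median of -0.26 and 70 of 83 members below 0. The summed ribosomal level of 98.6% of cluster 9 cells lay above the median of cluster 10.

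The genes that were lower than in cluster 10 included some regulators of pluripotency. Over all genes tested against cluster 10, 13.3% were lower, which is the share to set beside each list here. Of 11 core pluripotency genes 10 were tested, and 3 were lower (Sox2, Nanog and L1td1). Nanog was at 102 UMI CPM in cluster 9 and 394 in cluster 10, Zfp42 (Rex1) at 244 against 643 and the DNA demethylase Tet1 at 165 against 473. Mycn, a Myc family transcription factor, was at 58.1 against 180. It was the only lower one of 11 tested genes of the Myc family and ribosome biogenesis, a share not above that of all genes. Lefty1 and Lefty2, inhibitors of Nodal, were at 9.83 against 62 and 155 against 699, and 4 of the 6 tested genes of the Nodal pathway were lower. The X-linked homeobox genes Rhox5, Rhox6 and Rhox9 were lower, 3 of 4 tested members of their family, and the family summed to 165 against 733 UMI CPM. Lefty1, Rhox6 and Rhox9 were below 50 UMI CPM in cluster 9 and entered the comparison through their level in cluster 10. Of 12 S phase genes tested, Rrm1, Rrm2 and Ung were lower, and 22.1% of cluster 9 cells lay above the cluster 10 median of the S phase sum.

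The 2 clusters also differed in depth. Day 4 cells held a median of 4915 UMIs in cluster 9 and 9540 in cluster 10, and 2068 against 3714 genes. Thinned to 2500 UMIs they held 1380.5 and 1608 genes. Spike-in RNA had been added in the same amount to each well, and cells of cluster 9 held a median of 50.5 cell UMIs per spike-in UMI against 105 in cluster 10. Genes higher in cluster 9 had a median transcript length of 1636 bases, genes lower 3078.5, and all tested genes 2486. The part of depth, RNA content and transcript length in the gene differences was not tested. Between thinned cells, 286 genes were higher in cluster 9 than in cluster 10 instead of 174.

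A cluster pair with a depth difference in the same direction was found in the other day 4 libraries and in the day 0 Eed null library, and the genes were compared across them. In the day 4 WT library the 2 main clusters were 7 and 12, with medians of 4607.5 and 7050 UMIs and of 42.4 and 73.0 UMIs per spike-in UMI. Of the 174 genes higher in cluster 9 than in cluster 10, 143 were also tested there, 142 had a log2 ratio above 0 and 75 (52.4%) passed the limit, beside 4.80% of all genes tested in that pair. Of the 623 lower genes 434 were tested, 420 were below 0 and 178 (41%) passed, beside 10.7% of all. Over 3969 genes tested in both libraries the ratios had a Pearson r of 0.72, which is a description across genes that are not independent replicates. No WT cell is in cluster 9, and yet the WT library divided along many of the same genes.

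**Figure D4:**
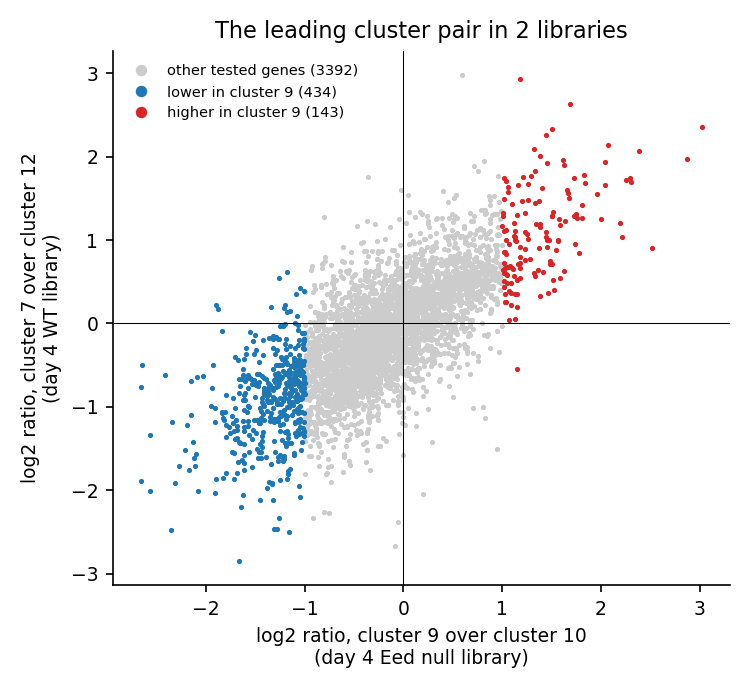
Each point is 1 of 3969 genes, with the log2 ratio of cluster 9 over cluster 10 in the day 4 Eed null library on the horizontal axis and of cluster 7 over cluster 12 in the day 4 WT library on the vertical axis. Genes called higher in cluster 9 (red) lie above 0 on the vertical axis for 142 of 143.

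The other pairs were compared in the same way. In Mtf2 null cells of day 4 (clusters 2 and 1) 117 of 125 of the higher genes were above 0 and 53 (42.4%) passed the limit, beside 5.46% of all, and in Jarid2 null cells (clusters 2 and 5) 127 of 129 and 67 (51.9%), beside 6.25%. For the lower genes the shares that passed were 10.5% beside 5.50% of all and 13.2% beside 3.70%. In the Mtf2 null pair 131 of 494 lower genes were above 0 and 15 of them were called higher, and in the Jarid2 null pair 92 of 476 and 4. In Eed null cells of day 0 (clusters 9 and 6) 131 of 136 higher genes were above 0 and 88 (64.7%) passed, beside 8.00%, and 48.2% of the lower ones, beside 14.7%. Ifi30 stood at 1496 against 357 UMI CPM in the WT pair, 423 against 141 in the Mtf2 null pair, 600 against 155 in the Jarid2 null pair and 621 against 139 at day 0. Gadd45b, Ctsa, Cd68, Per1 and Hrk were higher in the first cluster of all 5 pairs, and Mycn was lower. For Hrk at day 0 this rests on 5 UMIs in cluster 9, and the interval of its log2 ratio (-0.26 to 2.86) includes 0. Not every gene did so. Myl3 was at 106 against 9.79 UMI CPM between clusters 9 and 10 and at 26.3 against 1.70 at day 0, but at 4.96 against 3.50 in the WT pair. Rhox6 was lower in cluster 9 at day 4 and in the WT pair, 5.78 against 25.7, and at 52.7 against 31.9 in the day 0 Eed null pair. The first cluster of each pair had the lower UMI median, and the clusters were built from these genes, so no test was made.

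Cluster 9 cells of day 4 were also compared with those of day 0. Of 4336 tested genes 178 were higher at day 4 (4.11%) and 358 lower (8.26%). Of the germline genes, Sycp3 was higher at day 4 (81.9 against 21.1 UMI CPM, the latter 4 UMIs). Dazl was at 80.2 against 47.4 UMI CPM, Sohlh2 at 173 against 89.5 and Dppa5a, a pluripotency-associated RNA-binding protein, at 2713 against 1506. These ratios were below 2. Myl3 was higher, at 106 against 26.3. Ddx4 was at 49.95 against 26.3, while Mael, at 53.2 against 79.0, was not higher at day 4. The day 0 values rest on 34 cells, for which 3 UMIs correspond to 15.8 UMI CPM.

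Bulk RNA of the libraries labelled Eed null and of J1 at days 0, 2, 4 and 7 gave a comparison that had no part in the clustering, with 1 library or averaged columns per line and day and the 4 days as blocks. The day 0 columns are labelled mono and those of the later days eb. A bulk level sums all cells of a culture, so fewer cells of a type and less RNA per cell cannot be told apart. Line and genotype cannot be told apart in bulk either, and the p-values below do not separate them. With limma, 1144 of 14589 genes were called higher in Eed null (7.84%) and 438 lower (3.00%) at an adjusted p under 0.05, and 4280 had an unadjusted p under that value. With TMM scaling the counts became 780 and 711, so the share of higher calls went from 72.3% to 52.3%, and edgeR on the recovered reads called 490 and 499. Eed was not lower in the libraries labelled Eed null, at 131, 212, 113 and 65 CPM against 110, 232, 78.6 and 53.1 in J1 (adjusted p = 0.278, limma), so the label could not be checked by the level of this transcript in bulk. Of the genes called higher, 514 (45%) lay on chromosomes 3 and 6, which held 9.46% of the genes tested, and 242 of those called lower (55.5%) on chromosome 11. Genes of these chromosomes make up much of the bulk difference, and counts without them are given below.

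Of the 313 genes higher in cluster 9 than in WT cells 299 were tested in bulk, and 102 were called higher (34.1%) and none lower, beside 7.84% and 3.00% of all genes. Leaving out chromosomes 3, 6 and 11, 52 of 206 were called higher (25.2%), beside 5.09% of all. Of the 304 lower genes 280 were tested, and 52 were called lower (18.6%) and 1 higher. Without the same chromosomes 38 of 251 were called lower (15.1%), beside 1.57% of all. Both shares were above those of all genes. Of the 174 genes higher than in cluster 10, 148 were tested and 8 were called higher (5.41%), a share near that of all genes. The 299 genes included 55 called higher by edgeR, and leaving out 1 day the limma count ran from 3 (without day 2) to 36 (without day 4). For the lower genes the limma count ran from 4 (without day 2 or day 7) to 15 (without day 4).

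Dnmt3l was at 752, 362, 330 and 138 CPM in Eed null cultures at days 0, 2, 4 and 7 and at 140, 202, 13.8 and 7.59 CPM in J1. It was higher on all 4 days, by a log2 fold change of 2.98 (SE 0.58, adjusted p = 0.0279, limma), and with edgeR the adjusted p was 0.0624. The call was also lost with limma when any 1 of the 4 days was left out. Dppa3 was at 114, 87.6, 173 and 59.9 CPM against 82.6, 49.7, 7.64 and 6.35. It too was higher on every day, but did not pass the test (adjusted p = 0.0767, limma). In J1 both markers were low from day 4 on, and in Eed null cultures they were still present at day 7.

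Of the germline list 23 genes were tested in bulk, 10 were called higher (43.5%) and none lower, beside 7.84% and 3.00% of all genes. The median log2 fold change was 1.90 beside 0.12 over all genes. Tex15 was at 126, 172, 109 and 87.8 CPM in Eed null and 22.8, 37.3, 15.9 and 13.2 in J1, a log2 fold change of 2.52 (SE 0.14, adjusted p = 0.00248, limma). It was called by edgeR as well (adjusted p = 0.0128) and with any 1 day left out. Mael and Rpl10l also rose (log2 fold changes of 2.29 and 2.26, adjusted p = 0.0333 and 0.0427, limma) and were not called by edgeR. Dazl, Ddx4 and Smc1b did not pass (adjusted p of 0.0829, 0.128 and 0.139, limma). Sohlh2 was at 122, 88.5, 62.8 and 49.8 CPM against 57.1, 24.7, 2.48 and 1.54 (log2 fold change 3.02, adjusted p = 0.0337, limma; not called by edgeR), and Esx1 at 80.6, 18.7, 24.2 and 78.3 against 2.38, 1.88, 1.59 and 4.61 (3.88, adjusted p = 0.00731). Of the 10 germline genes called, 4 lie on chromosome 3 or 6 (Slc25a31, Tdrkh, Asz1 and Stra8). Leaving out 1 day, 1 or 2 of the 10 calls remained, and Tex15 was among them each time.

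The p53 targets fell in bulk too. Of 12 tested, 11 were called lower by limma and the same 11 by edgeR, with Perp the exception, and none was called higher. With limma 3.00% of all genes were called lower and 7.84% higher. Ccng1 was at 48.1, 43.4, 27.3 and 63.3 CPM in Eed null and 442, 278, 495 and 683 in J1, a log2 fold change of -3.36 (SE 0.23, adjusted p = 0.0049, limma). Cdkn1a (-2.42, adjusted p = 0.014) and Mdm2 (-1.14, adjusted p = 0.013) were lower on each of the 4 days. Trp53 was at 17.2, 46.3, 25.8 and 13.9 CPM against 265, 355, 235 and 181, a log2 fold change of -3.42 (SE 0.18, adjusted p = 0.00248, limma). The median over chromosome 11 was -0.36, and the part of the chromosome in the Trp53 difference was not tested. With 1 day left out between 2 and 6 of the 12 targets were called, Ccng1 each time, and 11 or 12 of them stayed below 0. p53 targets were thus lower against both E14 and J1. Of the genes higher in cluster 9 than in cluster 10, Ctsa did not pass the test (log2 fold change 0.04, adjusted p = 0.901, limma, and -0.09 with edgeR). Of 32 lysosomal genes tested 3 were called higher (9.4%) and 1 lower (3.1%), shares near the 7.84% and 3.00% of all genes.

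**Figure D5:**
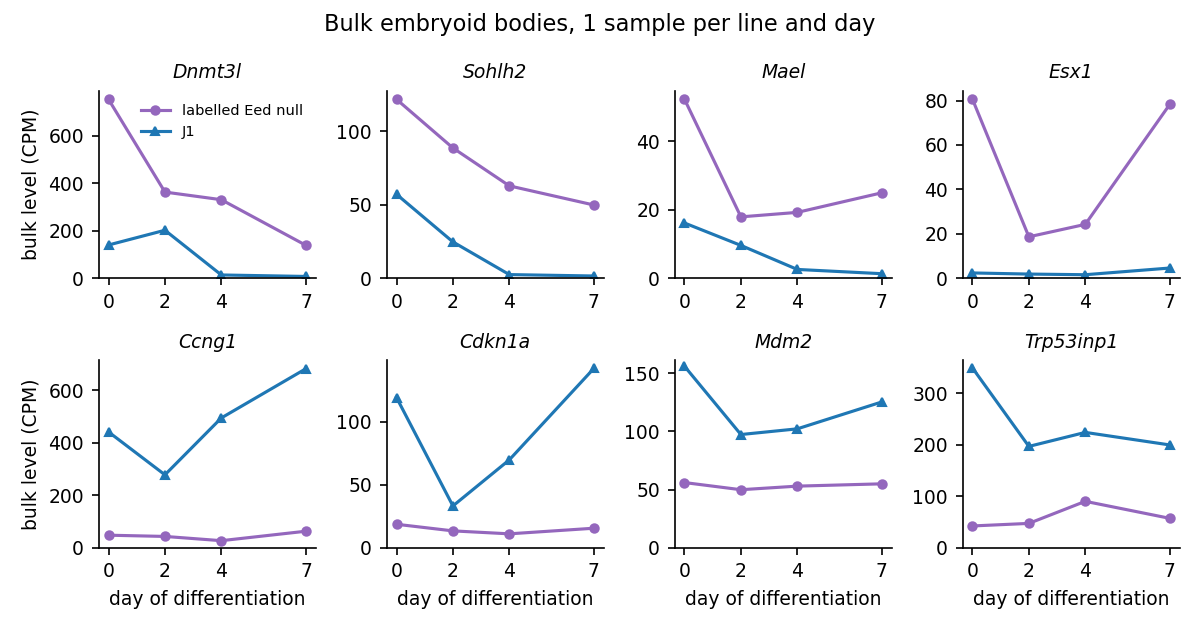
Bulk levels in CPM (vertical axes, from 0) at days 0, 2, 4 and 7 (horizontal axes) for 4 genes that were higher in cluster 9 than in WT cells (upper row) and 4 p53 targets (lower row), in libraries labelled Eed null (purple) and J1 (blue), 1 value per line and day. Dnmt3l goes from 752 to 138 CPM in Eed null and from 140 to 7.59 in J1, and Ccng1 lies between 27.3 and 63.3 against 278 and 683.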

How the data were processed

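Single cells were sorted alive (7-AAD) into 384-well plates and sequenced by SORT-seq with unique molecular identifiers (UMIs) and ERCC spike-ins. The authors aligned reads to GRCm38/mm10 with Bowtie2, counted with HTSeq, filtered cells with Scater and clustered them in Seurat v3 at a resolution of 2.5 with the library regressed out. The deposited single-cell table holds UMI counts, and its annotation gives each cell's cluster. The deposited bulk table holds a signal, gene read counts that the authors divided by DESeq2 size factors. Salmon and CASAVA are also in the submitters' processing notes, without versions. The bulk values were multiples of 1 read in 100% of cases (tolerance 0.02 of a read), so reads were recovered.

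Members, gene lists, tests and alternatives were chosen with earlier results of these data known. To 30 gene lists, 6 were added after values were seen (among them lysosome, stress, metallothionein and ribosomal protein genes), as were the promoter search, the chromosome description and Trp53. UMIs were summed per group and scaled to counts per 1000000 (CPM). Genes needed 50 CPM and a UMI in 10% of cells in the higher group, a call needed a ratio of 2, and 3 UMIs served as the floor. Named were the 15 highest and 10 lowest ratios per comparison and members of the lists, of which the text describes a selection, and some genes are not reported here. Doublets were not called. Intervals are at 95%. Cells were thinned to 2500 UMIs with seed 7. The deposited spike-in rows hold 383 values for 384 wells, and the first well was taken as the missing one because the correlation of spike-in and cell UMIs was then higher in 16 of 16 libraries. No mitochondrial gene is in the single-cell table.

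For bulk, 14 of 46 columns (3965840 to 6702637 reads) were used, scaled to CPM, repeat columns averaged, and 32 were not used. Of the 26007 genes 25816 had a symbol. limma was run on log2 CPM with a prior count of 2, at least 1 CPM in 4 samples, the day as a block and Benjamini-Hochberg adjustment at 0.05. edgeR's quasi-likelihood test called 989 of 14565 genes on the recovered reads and limma 1582 of 14589. On simulated bulk data, limma and edgeR both recovered 100% of 100 genes changed by a log2 of 2 and of 100 changed by 3. Among 14937 genes tested, 19 and 13 unchanged ones were called. On simulated single-cell sums over 15830 genes, 99 to 100% of genes changed by 1.5 or 2 were recovered. The simulated bulk counts had a fixed dispersion and no differences between days, and the single-cell ones counting error only. Both are easier settings than these data, where recovery was not measured. P-values measure the spread over days. Transcript lengths and coordinates came from GENCODE vM21, promoters from RefSeq. Versions were Python 3.11.15, numpy 2.4.6, pandas 2.3.3, scipy 1.17.1, matplotlib 3.10.9, R 4.3.3, limma 3.58.1 and edgeR 4.0.16.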

Additional observations from a re-analysis of the deposited data

How the results depend on the processing

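No paired analysis was possible because the samples compared share no replicate number within a day. Bulk samples were paired by day in the fit itself, and the single-cell libraries, which also share days, were not fitted across days. With a minimum of 20 instead of 50 UMI CPM the counts of higher and lower genes were 530 and 1591 against all other cells, 568 and 701 against WT cells, and 316 and 1341 against cluster 10. Against the other cells of day 4 alone, an alternative chosen after seeing the data, 485 genes were lower. Against cluster 10, thinning gave 286 higher genes and median-ratio scaling 402 lower ones. The share of cluster 9 cells with a UMI was 94.2% for Dnmt3l and 58.9% for Dppa3 without thinning, and 66.9% and 32.3% when thinned to 1500 UMIs. In bulk the counts of higher and lower genes were 496 and 216 with no filter on low values, and 7 and 7 without the day block. TMM scaling gave 711 lower genes and edgeR 490 higher ones. With 1 day left out, 5 to 255 genes were higher and 4 to 59 lower, fewest without day 2 and most without day 4. Single-cell calls that went below a ratio of 2 included Ddx4 against WT cells after thinning (log2 ratio 0.92), Sparc with day 4 cells of cluster 9 alone (0.78) and Dnmt3b against WT cells of cluster 7 alone (-0.57). Over all alternatives a summary value moved beyond its limits in 27 cases and stayed within them in 44. Of the single genes followed, 10 that were not called in bulk changed sign there. With 1 day left out the bulk log2 fold changes ran from -0.11 to 0.12 for Ctsa, from -0.26 to 0.42 for Ddit3, from -0.52 to 0.49 for Dll1, from -0.085 to 0.55 for Hspa1a, from -0.91 to 1.66 for Lefty1, from -0.45 to 0.13 for Mycn, from -0.069 to 1.21 for Peg10, from -0.41 to 0.30 for Sparc, from -0.64 to 0.42 for Sycp3 and from -0.26 to 0.51 for Tet1. With TMM scaling they were -0.084 for Ctsa, -0.075 for Ddit3 and -0.090 for Tet1, and with edgeR -0.094, -0.068 and -0.087. With a prior count of 0.5 Sycp3 was at 0.012, and with the first column alone Sparc was at 0.0016 and Tet1 at -0.025. No called gene changed sign, but over the bulk alternatives 103 gene values lost their call, while 451 stayed the same. The cause of these shifts was not tested. Depth limits genes under about 50 UMI CPM.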

Other observations

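Further gene groups were described in the same way in cluster 9. Of all genes tested, 16.4% were lower against all other cells, 6.97% against WT cells and 13.3% against cluster 10. Higher genes made up 7.17% against WT cells. Of 14 tested G2/M genes, Aurkb, a mitotic kinase, was lower in each of the 3 comparisons and no other member was called. Of the PRC2 subunits tested against WT cells, 9 in all, Eed was lower and no other was called. Among formative epiblast genes, Otx2 was lower than in WT cells (91.5 against 252 UMI CPM) and Etv4 higher (51.3 against 9.34). Of 11 tested genes of the Myc family and of ribosome biogenesis, 1 was lower than in WT cells and none higher. Of the trophoblast and keratin genes, Krt8, a keratin of simple epithelia, was at 64.5 against 15.4 UMI CPM. Sox11 was the neural gene tested, and it was lower than in WT cells. Neither of 2 tested mesoderm genes was called against WT cells, and no two-cell gene reached the level needed. Of the G1 cyclins, none of 4 tested was called against WT cells.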
